A study of Mus musculus with 4 samples.

Results

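The cells described here are lining macrophages of the arthritic mouse joint that carried many transcripts of immediate early genes. They were picked from a single-cell RNA dataset by 2 conditions. A cell barcode, the tag that stands for 1 captured cell, had to hold at least 3 unique molecular identifiers (UMIs, each 1 counted transcript) of Sparc and at least 3 of Vsig4, which places it among the lining macrophages. It also had to hold at least 5 UMIs in total of Atf3, Egr1, Fosb and Nr4a1. Of 10599 barcodes kept at days 1, 2 and 5, 2291 were within the Sparc and Vsig4 limits, and 611 of these reached the sum of 5. The libraries of days 1, 2 and 5 gave 178, 260 and 173. They are called early-high lining barcodes below and were set against the early-low lining barcodes of the same library, which were within the same Sparc and Vsig4 limits with a sum under 5. Those numbered 795, 499 and 386 on the same days.

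The mice were Cx3cr1creER:tdTomato mice, in which tamoxifen turns on the red reporter tdTomato in cells that express the receptor gene Cx3cr1, and in their progeny. Tamoxifen was given systemically to every group, 4 weeks before K/BxN serum, an arthritogenic serum that causes joint inflammation in the recipients. Sorted CD45+CD11b+Ly6G- cells of the hind paw synovium were taken 1, 2 and 5 days after the serum, and at steady state without serum (day 0). Ages, sexes and the number of mice behind a library are not given in the labels, and each day is 1 library. Day and library cannot be told apart, and differences between days have no replicate check.

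Immediate early genes are transcribed within minutes of a stimulus without the need for new protein. Many encode transcription factors of the AP-1, EGR and NR4A families, and others encode phosphatases, RNA-decay proteins and inhibitors of NF-κB that switch the response off again. Lining macrophages form a layer at the surface of the synovium, carry Cx3cr1, Trem2, Vsig4 and Sparc, and are joined to each other by junction proteins. The same early genes are known to be induced in tissue cells by enzymatic dissociation and by sorting.

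Because the cells were chosen by the counts of 4 genes in these same cells, each comparison below is a description and carries no test. Genes that vary with the 4 across cells had to differ to some degree. The 95% intervals cover counting error alone. A gene was called higher or lower where CPM (UMIs of the gene scaled to the same total of summed UMIs in each class) differed at least 1.5-fold the same way in all 3 libraries, after 5 CPM was added to each value. Mean log2 ratios are given ± SD over the 3 libraries, and that SD includes whatever differs between days.

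Promoter sequences of Nr4a1, Atf3 and Fosb, which are among the 4 genes that made the choice, are from RefSeq for the GRCm38.p6 build. The promoters of Fos, the classical immediate early gene, and Dusp1, a phosphatase gene that limits MAP kinase signalling, are shown with them as examples. Both genes were outside the choice and called higher, and both sequences held the half-site marked below. Each sequence runs from 250 bases before the start of transcription to 50 after it. Capitals mark TGACG on either strand, the half-site of the cyclic AMP response element that CREB and ATF proteins bind, or the full element TGACGTCA.
Fos (chr12:85473640-85473939, + strand): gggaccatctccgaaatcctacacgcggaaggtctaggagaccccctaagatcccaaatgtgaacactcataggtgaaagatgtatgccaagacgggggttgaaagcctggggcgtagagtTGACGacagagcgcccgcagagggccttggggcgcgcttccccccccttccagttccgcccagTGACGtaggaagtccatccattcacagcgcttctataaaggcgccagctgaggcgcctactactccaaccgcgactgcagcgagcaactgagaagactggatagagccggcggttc
Nr4a1 (chr15:101266596-101266895, + strand): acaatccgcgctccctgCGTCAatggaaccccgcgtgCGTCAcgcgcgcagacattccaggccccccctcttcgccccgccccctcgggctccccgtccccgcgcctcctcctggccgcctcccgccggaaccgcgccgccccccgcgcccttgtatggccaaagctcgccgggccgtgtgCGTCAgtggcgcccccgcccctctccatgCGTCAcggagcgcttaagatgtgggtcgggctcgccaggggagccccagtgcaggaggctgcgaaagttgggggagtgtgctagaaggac
Atf3 (chr1:191183284-191183583, − strand): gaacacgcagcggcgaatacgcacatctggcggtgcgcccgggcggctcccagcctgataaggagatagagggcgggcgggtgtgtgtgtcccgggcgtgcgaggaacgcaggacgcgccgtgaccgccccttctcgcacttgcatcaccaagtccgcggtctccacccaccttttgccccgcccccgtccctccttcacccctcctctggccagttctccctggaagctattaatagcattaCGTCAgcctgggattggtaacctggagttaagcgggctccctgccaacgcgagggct
Fosb (chr7:19309996-19310295, − strand): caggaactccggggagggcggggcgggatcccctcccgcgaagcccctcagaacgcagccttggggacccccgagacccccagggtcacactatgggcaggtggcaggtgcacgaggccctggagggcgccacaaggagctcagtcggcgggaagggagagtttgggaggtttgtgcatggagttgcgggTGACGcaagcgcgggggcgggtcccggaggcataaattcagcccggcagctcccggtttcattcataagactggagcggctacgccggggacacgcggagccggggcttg
Dusp1 (chr17:26508423-26508722, − strand): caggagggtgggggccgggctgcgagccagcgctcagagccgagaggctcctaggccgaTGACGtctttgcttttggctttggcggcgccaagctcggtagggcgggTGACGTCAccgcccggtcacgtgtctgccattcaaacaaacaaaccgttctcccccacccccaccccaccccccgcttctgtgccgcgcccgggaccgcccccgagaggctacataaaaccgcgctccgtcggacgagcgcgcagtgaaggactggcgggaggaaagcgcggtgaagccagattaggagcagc
The Nr4a1 window held 4 half-sites, at -233, -213, -69 and -40 from the start. The Fos window held 2, at -129 and -66, and the Dusp1 window held 3, of which 2 are the 2 strands of 1 full element. Atf3 and Fosb had 1 each, at -7 and -60. Other genes outside the choice had larger mean log2 ratios than Dusp1 and Fos, and their windows are not shown. Of these, Cxcl2, Il1b, Ier3, Zfp36 and Tnf held no half-site and Ccrl2 held 1. Across all 27025 mouse promoters of this length, 21.0% held TGACG on either strand, and 1.88% held TGACGTCA, which always contains TGACG. Of 56 genes called higher that had a promoter in the table, 24 (42.9%) held TGACG and 7 (12.5%) held TGACGTCA. GGGNNTTCC, a core of NF-κB sites, was in 8 of the 56 (14.3%) and in 5.72% of all promoters on either strand. TGANTCA, an AP-1 site, was in 2 (3.57%) and in 7.93% of all. The CArG box, bound by serum response factor, was in 1 of the 56 and in 1.57% of all. Sites more than 250 bases before the start were outside the windows and were not searched. Egr1, the remaining one of the 4 genes, had no promoter sequence available. These are letter matches and were not measured as binding.

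Atf3, which encodes a stress-induced transcription factor, gave more of the counts behind the choice than any other of the 4 genes. Its level was 813 CPM at day 1, 1162 at day 2 and 900.3 at day 5 in early-high barcodes, against 52.8, 85.0 and 72.1 CPM on the same days in early-low barcodes. Atf3 had more UMIs than any of the other 3 genes in 90 of 178 early-high barcodes at day 1, 159 of 260 at day 2 and 79 of 173 at day 5. Egr1, a zinc-finger factor, was at 352, 478 and 494 CPM in early-high barcodes, against 60.3, 42.9 and 46.5 CPM in early-low barcodes. Fosb, an AP-1 subunit, was at 238, 402 and 449 CPM against 41.0, 37.9 and 47.0 CPM. Nr4a1, an orphan nuclear receptor, was at 298, 429 and 376 CPM in early-high barcodes, against 39.4, 52.6 and 44.9 CPM in early-low ones. These differences were set by the choice.

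Most early-high barcodes held UMIs of several of the 4 genes, which a sum of 5 favours by itself. At least 3 of the 4 genes had a UMI in 124 (69.7%), 219 (84.2%) and 141 (81.5%) early-high barcodes of days 1, 2 and 5. The median sum was 8, 12 and 10 UMIs on those days, and the highest were 38, 60 and 37. A sum of 20 or more was found in 13, 71 and 25 barcodes. Barcodes with a sum of 4, just outside, numbered 35, 41 and 28, and those with a sum of 5, just inside, numbered 34, 24 and 26. Just inside the edge Atf3 was at 232, 416 and 382 CPM on the 3 days, against 204, 295 and 296 CPM just outside it, a difference that the threshold itself sets in part.

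Early-high barcodes made up 18.3% of lining barcodes at day 1 (exact interval 15.9 to 20.9%), 34.3% at day 2 (30.9 to 37.8%) and 30.9% at day 5 (27.1 to 35.0%). The day 1 share was the lowest and its interval did not overlap the others, while the day 2 and day 5 intervals overlapped. The other retained barcodes of the same libraries, which were outside the Sparc and Vsig4 limits, reached the sum of 5 in 14.4% (13.3 to 15.6%), 25.8% (23.9 to 27.8%) and 25.04% (23.4 to 26.7%). Lining barcodes thus had the higher share at each day and followed the same order of days 1 and 2 as the rest of the sort. Depth moved these shares. The median was 5393.5, 5604.5 and 5017 UMIs in early-high barcodes, against 4600, 4938 and 4529.5 in early-low ones at days 1, 2 and 5. Barcodes outside the Sparc and Vsig4 limits were shallower, with medians of 3852, 4043.5 and 4157.5 UMIs at a sum of 5 or more and 3204, 3633 and 3624 UMIs under it. When each barcode was thinned to 2000 UMIs, a sum of 5 was reached by 55 of 961 lining barcodes at day 1 (5.72%), 131 of 741 at day 2 (17.7%) and 77 of 555 at day 5 (13.9%). The other barcodes gave 7.44%, 15.4% and 11.6% after thinning. Thinning left out 12, 18 and 4 lining barcodes and 616, 296 and 73 others as too shallow. Day 1 was again lowest. After thinning, lining barcodes had the lower share at day 1 and the higher share at days 2 and 5, but the intervals overlapped on each day. For lining and other barcodes they were 4.34 to 7.38% and 6.53 to 8.42% at day 1. They were 15.0 to 20.6% and 13.7 to 17.2% at day 2, and 11.1 to 17.0% and 10.4 to 12.9% at day 5.

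**Figure D1:**
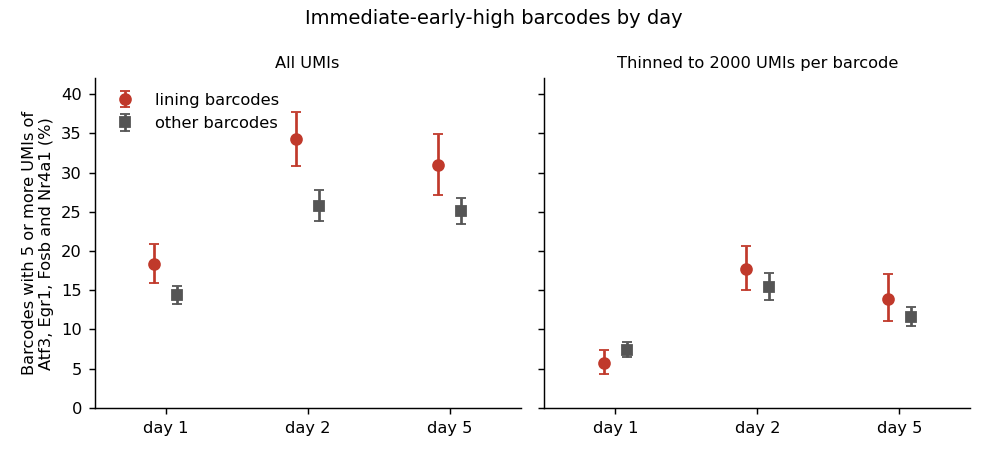
Share of barcodes (%) with 5 or more UMIs of Atf3, Egr1, Fosb and Nr4a1 at days 1, 2 and 5, for lining barcodes (circles) and other retained barcodes (squares), with all UMIs on the left and after thinning to 2000 UMIs on the right; bars are exact 95% intervals. Day 1 is lowest in both panels, at 18.3% and 5.72% of lining barcodes.

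Markers of lining macrophages were at similar levels in both classes. TdTomato, the lineage reporter, was at 1145 CPM at day 1, 1349.9 at day 2 and 1255 at day 5 in early-high barcodes, against 1166, 1208 and 1088 CPM in early-low barcodes. The TdTomato ratio was 0.982, 1.12 and 1.15 on these days. At least 1 TdTomato UMI was found in 96.5% of early-high and 94.3% of early-low barcodes at day 5. Of 213 Ly6c2 and Plac8 monocyte barcodes of that library, 27.2% had one, at a median depth of 4201 UMIs. Cx3cr1 was at 304, 346 and 320.3 CPM in early-high barcodes, against 320.4, 351 and 339.8 CPM in early-low barcodes, and its mean log2 ratio was -0.06 ± 0.03. Trem2, a lipid-sensing receptor, had a mean log2 ratio of -0.11 ± 0.06. Olfml3, a secreted protein of lining macrophages and microglia, had ratios of 0.826, 0.898 and 0.854 at the 3 days and a mean log2 ratio of -0.22 ± 0.06. Of 6 lining genes tested, 0 were called, and their median log2 ratio was -0.09, close to the median of -0.08 over all genes tested. Cldn5, a tight-junction gene of the same list, had no UMI recorded in the early-high barcodes. It was not tested, and only 7 of the 8 genes of that list were listed in all 3 libraries. Markers of several other cell types were at or near 0. The 7 T and NK cell markers had no UMI recorded, but 0 of them were listed in all 3 libraries. A deposited file lists only genes seen in at least 5 of its barcodes. The 10 neutrophil markers summed to 38.0, 17.0 and 25.5 CPM in early-high barcodes, against 18.6, 17.8 and 13.4 CPM in early-low barcodes. The 8 fibroblast markers summed to 13.9, 32.7 and 14.9 CPM against 12.1, 15.9 and 11.8 CPM. The summed B cell, endothelial, mast cell and haemoglobin genes did not pass 11.1 CPM in early-high barcodes on any day. The 8 monocyte markers summed to 147, 106 and 356 CPM in early-high barcodes, against 136, 156 and 190.2 CPM in early-low ones, so the classes were furthest apart at day 5.

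Outside the 6 genes of the choice, 5001 genes were tested. In early-high barcodes 74 were called higher (1.48%) and 1 was called lower (0.02%). In each library alone, the genes 1.5-fold higher numbered 129 at day 1 (2.58%), 128 at day 2 (2.56%) and 169 at day 5 (3.38%), and 76 (1.52%), 64 (1.28%) and 159 (3.18%) were 1.5-fold lower. Many of the 74 were early transcription factors, feedback genes, chemokines and cytokines. Among called genes with at least 50 CPM in 1 of the classes in every library, the largest mean log2 ratios belonged to Cxcl2, Il1b, Ccrl2, Ier3, Nfkbiz, Zfp36, Tnf, Dusp1, Fos, Rgs1, Mt2 and Nfkbid, between 3.40 and 1.95. Tnfaip3, at 2.51, and Nr4a2, at 2.29, were under that level at day 1.

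**Figure D2:**
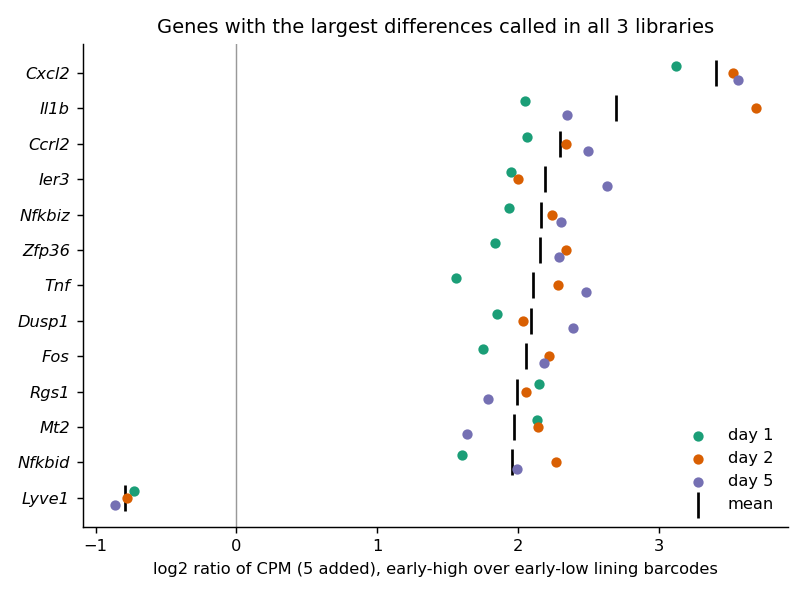
Log2 ratio of CPM (5 added), early-high over early-low lining barcodes, for the 12 genes called higher with the largest mean ratio among those with at least 50 CPM in 1 of the classes in every library, and for Lyve1, the 1 gene called lower; points are the libraries of days 1, 2 and 5 and the black tick is their mean. Cxcl2 has the largest mean, 3.40, and Lyve1 lies at -0.79 with its 3 points close together.

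Further AP-1 genes, which encode the Fos and Jun proteins that pair to bind DNA, were higher alongside Fosb and Atf3. Fos was at 2545 CPM at day 1, 4095 at day 2 and 3675 at day 5 in early-high barcodes, against 751, 874 and 804 CPM in early-low barcodes. The ratio was 3.39 (3.22 to 3.57), 4.68 (4.46 to 4.92) and 4.57 (4.30 to 4.86), and 173 of 178, 259 of 260 and 173 of 173 early-high barcodes had a Fos UMI. The Fos counts were therefore spread through the class, with 49, 77 and 46 barcodes needed to hold 50% of them. Junb was at 1544, 2064 and 2057 CPM against 604, 550.0 and 558 CPM, and Jun at 856, 973 and 753 CPM against 316, 312 and 323 CPM. Jund had the smallest ratio of the 4, at 152, 163 and 171 CPM in early-high barcodes and 75.8, 69.6 and 94.6 CPM in early-low ones. Of 10 genes of this list, 5 were tested, 4 were called higher and the median log2 ratio was 1.42.

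Other early factors followed. Of 14 tested, 10 were called higher and 0 lower, with a median log2 ratio of 0.96. Ier3, a short-lived survival factor, was at 404, 523 and 579 CPM in early-high barcodes, against 101, 127 and 89.2 CPM in early-low barcodes, a ratio of 6.49 (5.45 to 7.76) at day 5. Nr4a2, a relative of Nr4a1, was lower in level but as far apart, at 38.0, 77.3 and 75.6 CPM against 7.22, 7.73 and 10.7 CPM. Egr2 was at 25.05, 56.6 and 45.8 CPM against 8.51, 5.80 and 5.34 CPM. Its ratio was 2.94 (1.70 to 5.05) at day 1 and 9.76 (5.61 to 18.1) at day 2, and the intervals did not overlap. Ier2 had a mean log2 ratio of 1.23 ± 0.35.

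Genes that dampen signalling were higher to a similar degree. Of 17 feedback genes tested (phosphatases, RNA-decay factors, regulators of G-protein and cytokine signals), 10 were called higher and 0 lower, with a median log2 ratio of 0.89. Dusp1, whose promoter is shown above, was at 1178, 1525 and 2004 CPM in early-high barcodes, against 324, 368 and 378 CPM in early-low barcodes. Its ratio was 3.64 (3.37 to 3.94) at day 1 and 5.30 (4.86 to 5.79) at day 5. Zfp36, which encodes tristetraprolin and speeds the decay of cytokine mRNAs, was at 581, 946 and 906 CPM against 159, 183 and 181 CPM. Rgs1, a brake on chemokine receptor signalling, was at 644, 575 and 539.5 CPM against 142, 135 and 153 CPM. Unlike Dusp1 it was highest at day 1. Btg2, an antiproliferative early gene, had a mean log2 ratio of 1.77 ± 0.11.

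NF-κB feedback and target genes formed another group. Of 11 tested, 6 were called higher and 0 lower, with a median log2 ratio of 1.24. Tnfaip3, which encodes the ubiquitin-editing enzyme A20 and shuts NF-κB signalling down, was at 49.2, 113 and 161 CPM in early-high barcodes, against 11.3, 15.8 and 11.8 CPM in early-low barcodes. Its ratio was 4.33 (2.85 to 6.62) at day 1 and 13.7 (8.71 to 22.5) at day 5. The level differed between days in early-high barcodes, while the early-low values stayed within 5 CPM of each other. Nfkbiz, which encodes the nuclear protein IκBζ, was at 192, 261 and 300.1 CPM against 46.4, 51.4 and 56.6 CPM. Nfkbid, a related nuclear IκB gene, was at 54.7, 99.3 and 85.1 CPM against 14.7, 16.6 and 17.6 CPM. Nfkbia, which encodes the cytoplasmic inhibitor IκBα, had a mean log2 ratio of 1.63 ± 0.41.

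Chemokine genes included Cxcl2, which had the largest mean log2 ratio of all genes tested. Cxcl2, a neutrophil attractant, was at 324 CPM at day 1, 664 at day 2 and 848 at day 5 in early-high barcodes, against 32.7, 53.0 and 67.3 CPM in early-low barcodes. The ratio was 9.89 (8.05 to 12.2), 12.5 (10.5 to 15.1) and 12.6 (10.4 to 15.3). Only part of the class carried it: 48 of 178, 113 of 260 and 81 of 173 early-high barcodes had a Cxcl2 UMI, and 6, 14 and 13 barcodes held 50% of its counts. Ccl4, a chemokine gene, was at 539, 404 and 312 CPM against 100.3, 94.7 and 113 CPM. Ccl3, its close relative, was at 492, 397 and 391 CPM against 143, 149.6 and 141 CPM. Both were highest at day 1, the opposite order to Cxcl2. Ccl2, a monocyte attractant, was at 167, 236 and 229 CPM against 51.0, 76.1 and 67.9 CPM, and its mean log2 ratio of 1.62 ± 0.06 varied least of these. Of 10 chemokine genes tested, 5 were called higher and 0 lower. Ccl9 was at 681, 564 and 626 CPM in early-high barcodes and at 834, 817 and 787 CPM in early-low ones, so the list did not move as 1. Ccrl2, a receptor that binds the attractant chemerin without signalling, was at 95.5, 104 and 147 CPM against 19.1, 16.6 and 21.9 CPM.

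Among cytokines, Il1b, Tnf and Osm were called higher, 3 of 8 tested. Il1b, which encodes interleukin-1β, was at 64.9, 165 and 391 CPM in early-high barcodes, against 11.9, 8.12 and 72.7 CPM in early-low barcodes. It was found in few cells: 15, 47 and 51 early-high barcodes had a UMI, and 3, 7 and 6 barcodes held 50% of the counts. Among early-low barcodes of day 5, 2 held 50% of the 136 Il1b UMIs. Tnf was at 71.4, 138 and 161 CPM against 20.9, 24.4 and 24.6 CPM, with a UMI in 50, 99 and 56 early-high barcodes. Osm, which encodes oncostatin M, was at 55.7, 55.3 and 69.2 CPM against 7.22, 13.9 and 23.5 CPM, and its ratio was largest at day 1, at 7.71 (4.85 to 12.5). The monocyte markers, whose sums are given above, were also further apart at day 5 than at days 1 and 2, and their part in the Il1b values was not tested. At day 5, Il1b was at 1824 CPM in 7 early-high barcodes high in MHC class II genes, described below, and at 268 CPM in the rest. The early-low values split this way were 1007 and 48.8 CPM. The part of these barcodes was not tested either. Growth factor genes of the list were closer. Igf1 was at 179, 171 and 162 CPM in early-high barcodes and at 153, 137 and 146 CPM in early-low ones, and Tgfb1 had a mean log2 ratio of 0.11 ± 0.05.

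The heat shock genes, which encode chaperones, were closer between the classes. Of 13 tested, 0 were called, and the median log2 ratio was 0.15. Hspa1a had the largest ratio of them, at 485, 628 and 441 CPM in early-high barcodes and at 314, 389 and 406 CPM in early-low barcodes, with ratios of 1.55 (1.39 to 1.71), 1.62 (1.48 to 1.77) and 1.08 (0.960 to 1.22). Without the day 5 library it was called higher, the 1 heat shock gene that was. Metallothionein genes, which encode metal-binding proteins, were further apart. Mt2 was at 159.6, 238 and 93.6 CPM against 32.5, 49.9 and 26.7 CPM. Mt1 was at 885, 1114 and 592 CPM against 474, 456 and 419 CPM and was not called, since its day 5 ratio was 1.41 (1.26 to 1.58). A list of 38 genes known to be induced by tissue dissociation, which shares genes with most of the lists above and with none of the 4 of the choice, had 37 tested, 21 called higher and 0 lower, with a median log2 ratio of 1.00. The part of tissue handling in the early-high state was not tested. Ribosomal protein genes took 10.8%, 10.5% and 10.6% of UMIs in early-high barcodes, against 10.3%, 10.5% and 10.5% in early-low ones, and 0 of 92 were called. The median mitochondrial share was 2.68%, 2.64% and 2.83% against 2.54%, 2.46% and 2.60%. Of the long nuclear RNAs, Neat1 was at 732, 903 and 658 CPM against 441, 475 and 407 CPM, while Malat1 was within 1.10-fold.

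**Figure D3:**
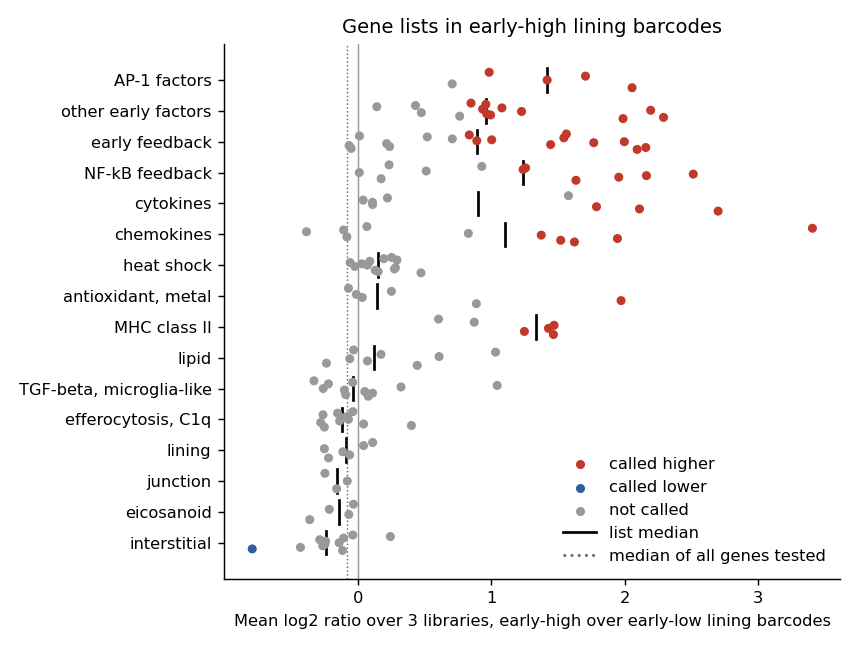
Mean log2 ratio over the 3 libraries, early-high over early-low lining barcodes, for each tested gene of 16 gene lists; red points are genes called higher, blue called lower, grey not called, black bars are list medians and the dotted line is the median of all genes tested, -0.08. The AP-1, early factor, feedback and NF-κB lists lie to the right, and the lining and junction lists lie near the dotted line. The interstitial list has the lowest median of the 16, -0.24.

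Levels were also described along the sum itself. With all lining barcodes split by the sum of the 4 genes into 0, 1 to 4, 5 to 9, 10 to 19 and 20 or more, Fos was at 509, 949, 1964, 3041 and 5058 CPM at day 1. Its day 2 values were 548, 1106, 2958, 4149 and 5184 CPM, and its day 5 values 477, 1069, 2652, 4101 and 5817 CPM. On each day Fos was higher in early-low barcodes with 1 to 4 UMIs of the 4 genes than in those with 0. Counting error in so small a sum places cells in neighbouring groups, so the split cannot tell a gradual difference from a stepped one. The day 1 group with 20 or more held 13 barcodes, and the others held at least 25. Ccl3 was not ordered this way. Its day 1 values were 96.0, 182, 446, 577 and 492 CPM, its day 2 values 77.2, 201, 512, 487 and 182 CPM, and its day 5 values 90.6, 182, 449, 368 and 262 CPM. Ccl3 was thus highest at intermediate sums on each day. TdTomato was between 1079 and 1225 CPM up to a sum of 19 at days 1 and 5, and at 1514 and 1589 CPM in the group with 20 or more. At day 2 it was at 1202, 1213, 1216, 1391 and 1439 CPM along the split. Median depth was not equal in these groups, at 4355, 4882, 5212, 5494 and 5498 UMIs at day 1, 4709, 5143, 5238, 5341.5 and 6487 UMIs at day 2, and 4233, 4780, 4832, 5104 and 4747 UMIs at day 5.

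**Figure D4:**
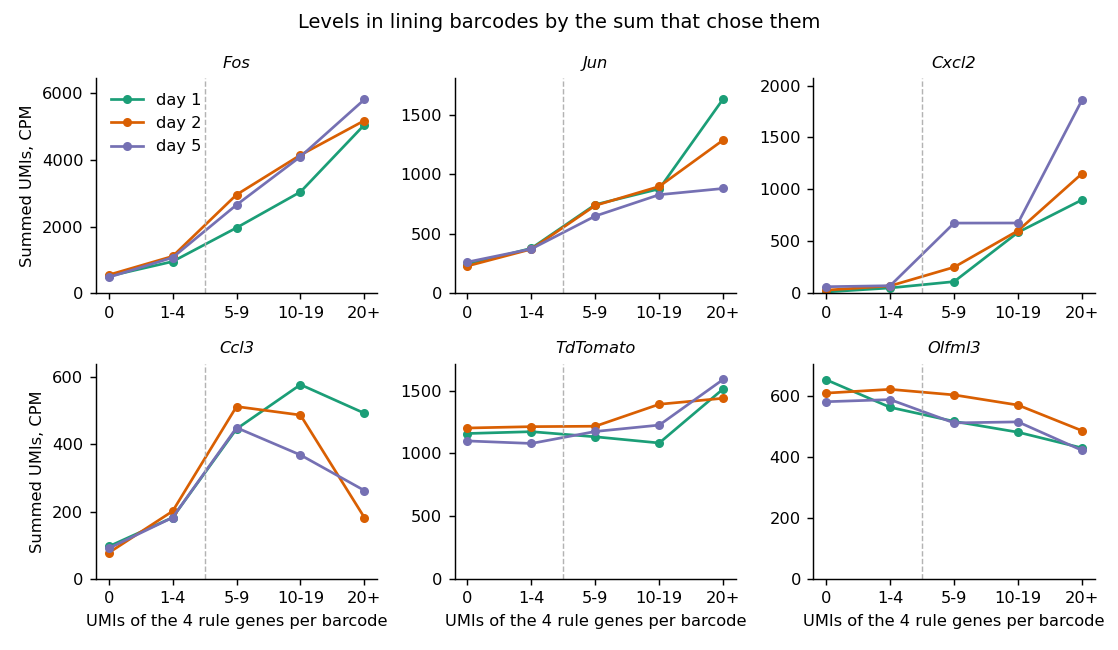
Level (CPM of summed UMIs) of Fos, Jun, Cxcl2, Ccl3, TdTomato and Olfml3 in lining barcodes split by their UMIs of Atf3, Egr1, Fosb and Nr4a1, one line per day; the dashed line separates early-low (left) from early-high (right) barcodes. Fos climbs across the whole split on each day, Ccl3 is highest between sums of 5 and 19, and Olfml3 is lowest in the group with 20 or more on each day.

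Lyve1, the hyaluronan receptor of perivascular and interstitial macrophages, was the 1 gene called lower. It was at 909, 929 and 727 CPM in early-high barcodes, against 1509, 1592 and 1328 CPM in early-low barcodes, so the summed level was lower in each library. Single barcodes overlapped, and a Lyve1 UMI was found in 78.7%, 82.7% and 74.6% of early-high barcodes, against 90.6%, 87.4% and 85.8% of early-low ones. The ratio was 0.602 (0.562 to 0.645), 0.584 (0.550 to 0.620) and 0.547 (0.502 to 0.596). Sparc and Vsig4, which were part of the choice, were also lower, Sparc at 1905, 2080.1 and 2048 CPM against 2371, 2451 and 2392 CPM, and Vsig4 at 4026, 4242 and 3895 CPM against 4652, 4484 and 4529 CPM. Other genes of interstitial macrophages were not called. Cd163, a haemoglobin scavenger receptor gene, was at 135, 98.7 and 80.9 CPM in early-high barcodes, against 147, 128 and 145 CPM in early-low barcodes, and its day 5 ratio of 0.559 (0.427 to 0.723) was close to that of Lyve1. F13a1, a transglutaminase gene, was at 737, 609 and 597 CPM against 815, 739 and 767 CPM, and Timd4, a phosphatidylserine receptor, was at 125, 95.5 and 101 CPM against 139, 131 and 123 CPM. Of the 11 genes of that list, 10 had a mean log2 ratio below 0, with a median of -0.24. The median over all genes tested was -0.08, so most of them lay below 0 as well. In early-high barcodes Apoe, the lipid carrier, was at 20181, 16676 and 17668 CPM against 13677, 12328 and 13946 CPM, under 1.5-fold at each day. Of 11 efferocytosis and complement C1q genes, 11 TGF-β and microglia-like genes and 4 eicosanoid genes tested, 0 were called, with median log2 ratios of -0.12, -0.04 and -0.14.

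The 4 called genes of MHC class II, which present antigen to T cells, came from few barcodes. Cd74, the invariant chain gene, was at 3583, 2096 and 1429 CPM in early-high barcodes, against 873, 1059 and 539 CPM in early-low barcodes. H2-Aa was at 1129, 601 and 485 CPM against 236, 336 and 189.7 CPM. The 6 tested genes of the list had a median log2 ratio of 1.34. At least 50 summed UMIs of Cd74, H2-Aa, H2-Ab1 and H2-Eb1 were in 16 early-high barcodes at day 1 (8.99%), 14 at day 2 (5.38%) and 7 at day 5 (4.05%), against 18 (2.26%), 15 (3.01%) and 6 (1.55%) early-low barcodes. The 37 early-high ones held 95.5%, 90.7% and 83.5% of the class II UMIs of the early-high barcodes, and the median over all early-high barcodes was 1.5, 2 and 2 UMIs. These 37 were also deeper, with medians of 9130, 8472.5 and 10290.0 UMIs against 5112.5, 5504 and 4823.5 in the other early-high barcodes. Their Sparc level was 930, 1200 and 1243 CPM against 2070, 2166 and 2117 CPM. Cd209a, a dendritic cell gene, was at 353, 346 and 108 CPM against 6.51, 11.7 and 4.62 CPM, and Ccr2, a monocyte receptor gene, at 372, 268 and 324 CPM against 11.9, 6.90 and 46.2 CPM. Early-low barcodes with at least 50 class II UMIs differed the same way. Their medians were 8322.5, 5676 and 6631 UMIs against 4588, 4917 and 4479 in the other early-low barcodes. Sparc was at 1306, 1390 and 1264 CPM against 2412, 2493 and 2421 CPM. Cd209a was at 253, 511 and 64.3 CPM against 3.75, 3.62 and 2.74 CPM, and Ccr2 at 491, 388 and 557 CPM against 5.08, 6.43 and 17.0 CPM. Over all early-high barcodes the 8 dendritic cell markers summed to 231, 108 and 48.9 CPM, against 63.2, 71.9 and 34.7 CPM in early-low barcodes, and Ccr7 had no UMI recorded in early-high ones. No doublet caller was run, and whether these barcodes hold more than 1 cell was not tested. Without the 37 early-high and 39 early-low barcodes over that limit, a choice made after seeing the data, 0 of the 6 genes were called and their median log2 ratio was 0.03. With barcodes over 2 times the median UMIs left out instead, 0 were called and the median was 0.23. The choice by rate, thinning before the choice and the mean of each cell's CPM also called 0 of them. Over all genes, leaving out the MHC class II barcodes gave 67 called higher, of which 65 were among the 74, and 1 called lower. Il1b, Tnf and Osm were called in that comparison too, with mean log2 ratios of 2.77, 2.16 and 1.80, and the AP-1, early factor and NF-κB lists had the same counts of called genes as with all barcodes.

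**Figure D5:**
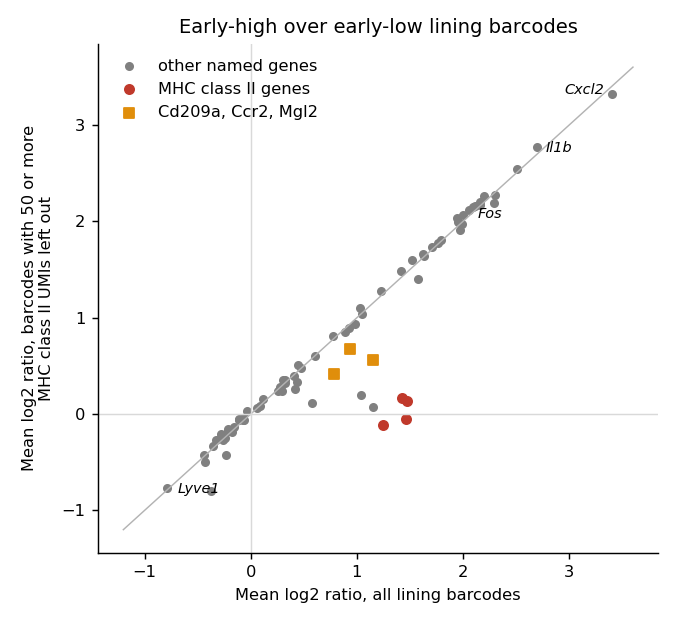
Mean log2 ratio (early-high over early-low lining barcodes) of the named genes with all lining barcodes (horizontal axis) and with barcodes of 50 or more MHC class II UMIs left out (vertical axis); red points are MHC class II genes, orange squares are Cd209a, Ccr2 and Mgl2, and the line marks equal values. Cxcl2, Il1b, Fos and Lyve1 lie near the line, and the MHC class II genes drop to about 0.

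Most genes called in lining barcodes were also called in the rest of the sort. In the other retained barcodes of the same libraries, those with a sum of 5 or more were set against those under 5 in the same way, and 97 of 5070 genes were called higher (1.91%) and 8 lower (0.158%). Of 72 lining calls that were tested in both, 58 were also called higher there, which is 80.6% of the lining calls and 74.4% of the 78 other calls tested in both. The AP-1 list had a median log2 ratio of 1.42 in lining barcodes and 1.84 in the others, and the NF-κB list 1.24 and 1.66. The chemokine list was at 1.10 in lining barcodes and 0.85 in the others. Lyve1 was also called lower in the others, with a mean log2 ratio of -1.11, against -0.79 in lining barcodes. The interstitial list had a median of -0.24 in lining barcodes and -0.56 in the others. The difference between lining and other barcodes was not tested. The other barcodes are all those with fewer than 3 UMIs of Sparc or of Vsig4, so lining macrophages with few such UMIs were not kept out. Sparc and Vsig4 summed to 605, 669 and 279 CPM in other barcodes with a sum of 5 or more. In early-high lining barcodes they summed to 5931, 6322 and 5943 CPM.

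A few genes set the days apart within the early-high barcodes. Of 2848 genes with enough counts, 60 (2.11%) differed at least 2-fold between the highest and the lowest day. Several of these rested on single barcodes. Ccl17, a CCR4 ligand, was at 9.28, 6.28 and 171 CPM, and 1 barcode at day 5 held 156 of the 161 UMIs of that day. Cxcl13, a B cell attractant, was at 93.7, 3.77 and 0 CPM, with 75 of its 101 day 1 UMIs in 1 barcode. Ifitm1, Thbs1 and Plac8, the last of these a monocyte gene, were seen mostly at day 5. Ifitm1 was at 0, 0 and 116 CPM, with 109 UMIs in 14 barcodes at day 5, of which 1 barcode held 53. Thbs1, which encodes thrombospondin-1, was at 3.71, 0.63 and 86.2 CPM, with 81 UMIs in 21 barcodes at day 5, of which 3 held 50%. Plac8 was at 2.78, 0 and 75.6 CPM, with 71 UMIs in 15 barcodes, of which 3 held 50%. In early-low barcodes the 3 genes were also highest at day 5, at 29.9 CPM for Ifitm1, 17.1 CPM for Thbs1 and 22.4 CPM for Plac8. In the day 5 library Sparc had a UMI in 7.51% and Vsig4 in 14.6% of the 213 Ly6c2 and Plac8 monocyte barcodes. Of these 213, 4 were within the lining limits. Whether such UMIs came from free RNA of other cells was not tested. The part of free RNA in the day 5 values was not tested either. Spp1, which encodes osteopontin, was at 131, 304 and 458 CPM in early-high barcodes, against 96.7, 132 and 158 CPM in early-low barcodes. Few barcodes carried it, and 4, 5 and 3 early-high barcodes held 50% of its UMIs.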

How the data were processed

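RNA of single sorted synovial cells was counted by the Chromium 3' v2 chemistry, and per the labels' protocols 17400 cells were loaded per library. Raw UMI counts for every gene and barcode were deposited. The tools named, per the submitters' processing notes, are Cell Ranger 2.1.0 with Seurat 2.3 in R 3.5.2, and the build is mm10. Which step each ran was not given in the sources used here. A deposited file lists genes seen in at least 5 of its barcodes. Replicates within a day were not analysed here, since each day has 1 library.

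A barcode was kept with 500 genes or more and a mitochondrial share under 10%. The 3 libraries of days 1, 2 and 5 held a total of 18426363, 12218230 and 14995823 UMIs over 4674, 2756 and 3265 barcodes, with medians of 3594, 4158.5 and 3888. The day 0 library had a median of 832 over 7542 barcodes. Libraries shared between 13 and 53 barcode sequences, and 10 early-high barcodes carried a sequence also found in another library. Doublets were not called. Counts were summed per class and library and scaled to CPM. Genes listed in all 3 libraries with a mean of at least 20 CPM over the 6 sums were tested, leaving out Atf3, Egr1, Fosb, Nr4a1, Sparc and Vsig4. Intervals of ratios are exact conditional Poisson intervals, and those of shares are exact (Clopper-Pearson). Thinning drew 2000 UMIs per barcode with a fixed seed.

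The members, the gene lists and the calls were chosen with earlier results of these data known. Genes were named by a rule: called genes with at least 50 CPM in a class of each library and the 12 largest or smallest mean log2 ratios, up to 4 tested genes per list with the largest ratios, the genes of the choice, Fos, Jun and TdTomato, and the 6 genes that differed most between days. Cx3cr1, Ccl9, Igf1 and Tgfb1, outside it, were named after their values were seen. Alternatives covered the barcode filters, the choice itself, thinning, scaling, weighting, the low-value filter, the added CPM, the fold, possible doublets and each library left out. On simulated counts for this comparison, 41 of 50 genes set 2-fold higher (82%) and 27 of 50 set 2-fold lower (54%) were called, as were 50 of 50 set 4-fold higher and 39 of 50 set 4-fold lower. Of 4790 unchanged genes 0 were called, and 95.91% of intervals held the true ratio. These counts were drawn as Poisson sums per class, the model that the intervals assume, without variation between cells. The simulation therefore cannot show how calls and intervals behave for genes whose UMIs sit in few barcodes. Promoters and motifs were read from the RefSeq table. The scripts ran in Python 3.11.15 with pandas 2.3.3, NumPy 2.4.6, SciPy 1.17.1 and, for plots, matplotlib 3.10.9.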

Additional observations from a re-analysis of the deposited data

Results flagged for a closer look

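The day 0 library was used in no comparison. Of its 266 barcodes within the Sparc and Vsig4 limits, 4 reached 5 UMIs of the 4 early genes, which is 1.504% (exact interval 0.411 to 3.81%, which includes the 1.13% that a count of 0 would allow). Other day 0 barcodes reached it in 89 of 3449 (2.58%). The early-low lining barcodes of day 0 had a median of 1250.0 UMIs, and the part of depth in this share was not tested.

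For 4 named genes described here, the ratio of early-high over early-low barcodes lay above 1 on one day and below 1 on another. Their counting intervals did not overlap, and each spanned at least 1.03 on the log2 scale. Other named genes met the first 2 conditions too. Alox5ap had ratios of 0.884 (0.831 to 0.941) at day 1 and 1.01 (0.943 to 1.09) at day 5. Cxcl13, which was not among the genes tested, had 33.0 (17.7 to 68.3) at day 1 and 0 (0 to 4.82) at day 5. The difference between days was not tested, and each day is 1 library. Stmn1, a microtubule regulator of dividing cells, had ratios at days 1, 2 and 5 of 2.18 (1.62 to 2.90), 0.877 (0.643 to 1.19) and 0.188 (0.0876 to 0.359), a span of 2.99 on the log2 scale. It rested on few barcodes: 2 early-high barcodes held 50% of its UMIs at day 1 and 2 at day 2, and 1 early-low barcode held 44 of 106 UMIs at day 5. Retnla, a secreted protein of alternatively activated macrophages, had ratios of 1.84 (1.65 to 2.06), 0.448 (0.360 to 0.555) and 0.929 (0.824 to 1.05), a span of 1.97. For Retnla, 3 early-high barcodes held 50% of the UMIs at day 1, and 1 early-high barcode held 252 of 410 at day 5. Ctsk, the cathepsin of osteoclasts, had ratios of 2.34 (1.70 to 3.20), 1.71 (1.23 to 2.40) and 0.508 (0.314 to 0.795), a span of 1.95. Ifitm3, an interferon-induced membrane protein, had ratios of 1.72 (1.51 to 1.97), 0.832 (0.723 to 0.956) and 1.68 (1.48 to 1.90), a span of 1.03. At days 1, 2 and 5, 50% of the early-high UMIs lay in 4, 5 and 5 barcodes for Ctsk and in 14, 22 and 7 for Ifitm3. The counting intervals do not cover such differences between barcodes.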

How the results depend on the processing

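The share of lining barcodes that were early-high at days 1, 2 and 5 moved with the choice itself. It was 28.4%, 44.5% and 41.9% with a sum of at least 3, 10.3%, 26.2% and 21.3% with at least 8, 12.4%, 28.6% and 24.7% with at least 5 per 4000 UMIs, and 5.77%, 17.5% and 14.1% with barcodes thinned to 2000 UMIs before the choice. It was 10.1%, 23.2% and 21.1% without Atf3 in the sum and 14.8%, 30.8% and 26.8% without Nr4a1. It was 13.8%, 31.2% and 24.9% without Egr1 and 15.2%, 31.5% and 26.3% without Fosb. Day 1 was lowest and day 2 highest in each of these. Genes called higher numbered between 59 and 100 except with a 2-fold call, which gave 34. Of the 74, 54 were also called with thinning before the choice and 56 with thinning after it. Lyve1 was lower in each alternative except the 2-fold call, which called 0 genes lower. Genes called lower, 1 in the main comparison, numbered 3 with 2 UMIs of Sparc and Vsig4, 4 with a sum of 8, 3 against barcodes with a sum of 0 or 1, 2 with the rate, 47 and 12 with thinning before and after the choice, and 4 without barcodes over 2 times the median UMIs. They numbered 2 without Atf3, 3 without Egr1, 2 without Fosb, 3 with the mean of each cell's CPM, 9 without the low-value filter and 2 with 1 CPM added. They numbered 7, 6 and 5 without the libraries of days 1, 2 and 5. Cd74, H2-Aa and H2-Eb1 turned to mean log2 ratios of -0.27, -1.13 and -0.49 with thinning before the choice, and H2-Aa and H2-Ab1 to -0.056 and -0.12 without the MHC class II barcodes, an alternative chosen after seeing the data. The cause of these shifts was not tested, other than that leaving out a library or the filter requires less for a call. Depth limits what a sum of 5 can find, since the threshold is a count of UMIs and not a rate. Ratios were formed within each library, so the classes are paired by library throughout, and no other pairing was tried.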
